A study of Arabidopsis thaliana with 15 samples.

Results

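Wild type Arabidopsis thaliana inflorescences sprayed with dexamethasone (DEX) were compared with unsprayed ones by RNA sequencing, across all genes counted. The comparison holds 4 libraries of the 15 in the series: 2 of DEX-sprayed and 2 of unsprayed wild type, chosen by the sample labels. It was described for 21716 genes with enough counts to be tested, of 28775 counted. All plants had the Ler background, grew for 6 weeks at 21 °C, and gave tissue labelled inflorescence meristem. The sprayed wild type received 10 µM DEX with 0.02% Silwet L-77, a wetting agent, and was collected after 5 h. The labels give the other wild type no treatment, so the act of spraying, the wetting agent and the steroid changed together and cannot be told apart between these groups.

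The other libraries served for side-by-side values. The 6 sprayed ones came from 35S::STM-GR plants, in which the 35S promoter drives SHOOT MERISTEMLESS (STM) fused to the glucocorticoid receptor, and which were sprayed with DEX and Silwet (n = 3) or with Silwet alone as mock (n = 3). The 5 unsprayed ones came from ap1-1 (n = 3) and from ap1-1 carrying a microRNA against STM and BP that the AP1 promoter drives (n = 2), called the microRNA line here. Dexamethasone is a synthetic glucocorticoid that activates glucocorticoid receptor fusions, and wild type carries no glucocorticoid receptor fusion.

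Library totals were 22063727 to 24955420 gene counts in the 4 wild type libraries and 18717248 to 26539358 in all 15. Levels are given as CPM, counts scaled by edgeR for library size and not for gene length. The unsprayed wild type libraries differed from each other more than the DEX-sprayed pair did: chi-square per gene was 14.8 against 3.88, and 175 against 15 of 18322 genes were at least 2-fold apart. STM, which the 35S::STM-GR transgene adds to, was at 46.2 and 47.4 CPM without spray and 53.4 and 49.6 CPM with DEX in wild type and at 814 ± 8.22 CPM (SD, n = 3) in mock-sprayed 35S::STM-GR. Of the markers of the labelled tissue, 10 of 11 were counted in all wild type libraries, among them WUS and CLV1, while the stem cell gene CLV3 had 0 counts in each of these 4. Genes of mature pollen were abundant, with summed levels of 1517 and 976 CPM unsprayed and 1682 and 1572 CPM with DEX. None of the 4 pollen genes was called in edgeR, DESeq2 or limma-voom, and their part in the results was not tested. At an unadjusted p under 0.05 in edgeR, 1 was higher, beside 9.94% of all genes in either direction.

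Plant mitochondria report trouble in the respiratory chain to the nucleus, where NAC transcription factors held at membranes, such as ANAC017 and NAC13, are released and raise a set of genes. That set includes the alternative oxidases, which pass electrons to oxygen around the later complexes of the chain. Many of the same conditions raise genes that modify, conjugate and export foreign compounds, and heat shock proteins that keep other proteins folded.

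In wild type sprayed with DEX, 105 genes rose (0.484% of the genes tested) and 29 fell (0.134%), together 0.617%, at a Benjamini-Hochberg adjusted p under 0.05 (quasi-likelihood test of edgeR). Of the risers 86 (0.396%) and of the fallers 7 (0.0322%) changed at least 2-fold. The rises were the larger changes: the median log2 fold change of the risers was 2.31 and that of the fallers -0.81, beside 0.00 over all genes tested. Many risers were nearly silent before, with 46 of the 105 under 1 CPM in unsprayed wild type, whereas the fallers had a median of 39.5 CPM there. Every one of the 134 had no overlap between sprayed and unsprayed wild type libraries, a state that 22.9% of all genes reached in each direction. The number of calls rested on single libraries: leaving out unsprayed replicate 1 gave 158 risers and 104 fallers, unsprayed replicate 2 gave 39 and 4, DEX replicate 1 gave 78 and 12, and DEX replicate 2 gave 38 and 1. Of the risers 32 were called whichever wild type library was left out, and 1 faller was.

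**Figure D1:**
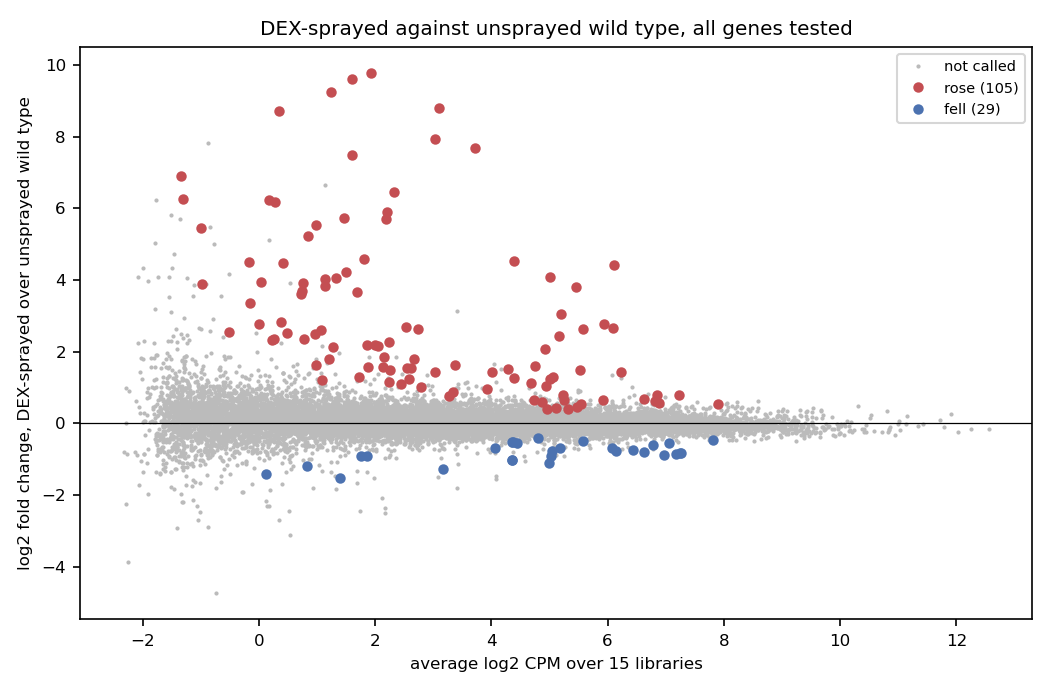
Each point is 1 of the 21716 genes tested, with its average log2 CPM over the 15 libraries on the x axis and its fitted log2 fold change in DEX-sprayed over unsprayed wild type on the y axis. Red points are the 105 genes that rose and blue points the 29 that fell at an adjusted p under 0.05; the risers reach much larger fold changes than the fallers, and many sit at low average levels.

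Genes of mitochondrial stress rose together. In the list of 13 known ANAC017 targets and related genes 8 rose (beside 0.484% of all genes) and 0 fell, and the list's median log2 fold change was 1.85. This list, like the others, was chosen with earlier results of these data known, so its shares are descriptions. All 13 had a higher estimate with DEX spray, and 12 had no overlap between the groups, beside 22.9% of all genes in that direction. The 8 were AOX1A, AOX1D, NDB4, AT2G21640, NAC13, AT5G51440, HSP23.6-MITO and UGT74E2. With single wild type libraries left out, 6 to 8 members rose, 6 of them without unsprayed replicate 2.

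AOX1A (AT3G22370), the main stress-induced alternative oxidase, was at 11.5 and 11.2 CPM without spray and 72.1 and 83.5 CPM with DEX. Both sprayed libraries lay far above both unsprayed ones, a 6.83-fold rise (log2 fold change 2.77 ± 0.19 (SE), edgeR adjusted p = 2.85e-06). AOX1D (AT1G32350), a second alternative oxidase, was at 0.0410 and 0 CPM without spray and 4.56 and 4.65 CPM with DEX. With 1 count in unsprayed wild type, its ratio was 228-fold, with a 95% counting interval of 40.5 to 9057 (edgeR adjusted p = 0.00393, and 0.0893 without unsprayed replicate 2). NDB4 (AT2G20800), an external NAD(P)H dehydrogenase that feeds electrons into the chain beside complex I, rose from 1.19 and 1.32 to 4.01 and 5.05 CPM (log2 fold change 1.85 ± 0.31, edgeR adjusted p = 0.00861). It lost the call without unsprayed replicate 2 (adjusted p = 0.0919) and without DEX replicate 2 (0.156).

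Chaperones and a marker protein of the organelle rose strongly. AT5G51440, annotated as an HSP20-like chaperone, was at 1.27 and 1.12 CPM without spray and 22.8 and 32.3 CPM with DEX. This was a 23.0-fold rise with no overlap (log2 fold change 4.53 ± 0.29, edgeR adjusted p = 2.41e-06). HSP23.6-MITO (AT4G25200), a small heat shock protein of the mitochondrion, had 0 counts in both unsprayed libraries and 3.97 and 4.49 CPM with DEX. It was at least 70.1-fold higher over a floor of 3 counts for the unsprayed group (edgeR adjusted p = 3.77e-05). AT2G21640, annotated as a marker of the oxidative stress response, rose from 6.11 and 4.92 to 43.5 and 48.1 CPM (log2 fold change 3.05 ± 0.24, edgeR adjusted p = 6.71e-06).

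The regulator and a conjugating enzyme of the same list rose as well. NAC13 (AT1G32870), 1 of the membrane-bound NAC factors, was at 12.5 and 14.5 CPM without spray and 30.8 and 35.3 CPM with DEX (log2 fold change 1.30 ± 0.17, edgeR adjusted p = 0.00169). UGT74E2 (AT1G05680), which glucosylates the auxin precursor indole-3-butyric acid, went from 11.6 and 10.2 to 65.5 and 70.5 CPM. That made a log2 fold change of 2.64 ± 0.20 (edgeR adjusted p = 5.48e-06). The 5 members not called were NDB2 (0.26 ± 0.08), NDA2 (0.30 ± 0.15), OM66 (0.82 ± 0.34), NAC017 (0.09 ± 0.08) and ABCG40 (0.98 ± 0.26), with edgeR adjusted p of at least 0.139. NAC017 itself, the regulator for which the list is named, stood at 69.3 and 73.9 CPM without spray and 72.8 and 79.3 CPM with DEX.

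The same genes stood high wherever plants had been sprayed, with or without DEX. AOX1A ranged from 72.1 to 137 CPM in the 8 sprayed libraries of any genotype and from 9.37 to 11.7 CPM in the 7 unsprayed ones. In mock-sprayed 35S::STM-GR, which received Silwet and no DEX, it was at 101 ± 25.6 CPM (SD, n = 3), and with DEX at 127 ± 9.10 CPM (SD, n = 3). For AT5G51440 the ranges were 22.8 to 50.9 CPM sprayed and 1.02 to 1.64 CPM unsprayed, and for UGT74E2 62.3 to 105 and 8.09 to 13.6 CPM.

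All 8 risers of the mitochondrial list had the 6 sprayed 35S::STM-GR libraries above the 5 unsprayed ap1-1 and microRNA libraries, which share no library with the wild type comparison and differ from each other in genotype too. Over all 105 risers, 96 (91.4%) showed this, beside 12.6% of all genes tested. Of the 29 fallers, 20 (69.0%) had all 6 below, beside 13.2%. DEX over mock in 35S::STM-GR, where both groups were sprayed and the transgene could respond, gave a rise for 25 of the 105 risers (23.8%, beside 5.56% of all genes) and for 0 of the 8 mitochondrial ones, with AOX1A at 0.33 ± 0.13, edgeR adjusted p = 0.129 (log2 fold change ± SE). Of the fallers 13 fell there too (44.8%, beside 7.15%). The 2 responses differed by edgeR's test for 62 risers, higher in wild type (beside 0.985% of all genes), and for 7 fallers, lower in wild type (beside 0.944%). The reference was unsprayed in wild type and mock-sprayed in 35S::STM-GR. This test holds the wild type contrast that chose these genes, so its direction was largely set and these shares are not independent. Mock-sprayed 35S::STM-GR over unsprayed wild type, which shares its control libraries with the wild type comparison, had 367 calls (1.69%), with AOX1A at 3.15 beside 2.77 for DEX-sprayed wild type. Between DEX-sprayed wild type and mock-sprayed 35S::STM-GR, which differ in genotype and in DEX, 7 genes were called in all (0.0322%), and 0 of the 134 (edgeR adjusted p). The DEX-sprayed libraries are shared with the comparison that chose those 134. Over the 105 risers the median log2 difference, DEX-sprayed wild type minus mock-sprayed 35S::STM-GR, was -0.10, with a range of -0.87 to 1.08, and an uncalled difference does not show that they were alike.

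**Figure D2:**
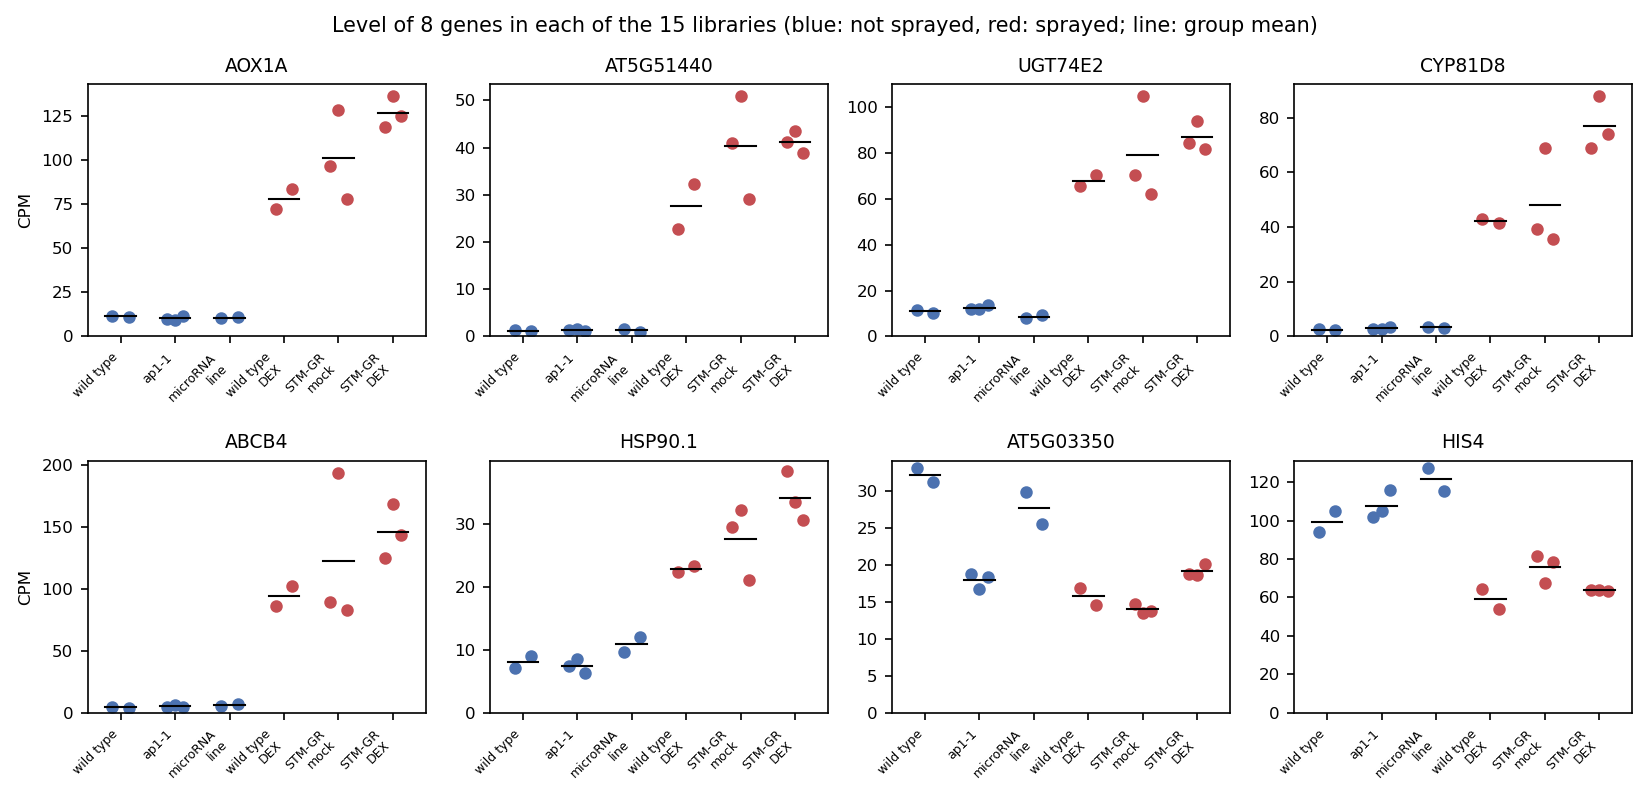
Each panel gives the CPM of 1 gene (y axis, from 0) in all 15 libraries, grouped on the x axis by genotype and spray; points are libraries, black lines group means, blue not sprayed and red sprayed. AOX1A, AT5G51440, UGT74E2, CYP81D8, ABCB4 and HSP90.1 are higher in each of the 8 sprayed libraries than in any of the 7 unsprayed ones and HIS4 is lower in each, while AT5G03350 in ap1-1 lies within the sprayed range.

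A motif near the gene start was found in a part of the risers. The mitochondrial dysfunction motif, which NAC13 and ANAC017 bind, was taken as CTTG, any 5 bases, and then CAAG (first form) or CACG (second form). It was searched on both strands, where the first form reads the same on either strand, in windows of 300 bases from 250 before to 50 after each annotated gene start, cut from the RefSeq TAIR10.1 genome. Of the 105 risers 23 (21.9%) held it, and of all 21594 windows 268 (1.24%). None of the 29 fallers did. In the mitochondrial list 5 of 8 risers held it (62.5%), but the motif was described from promoters of such genes, so this share is not independent. Read the other way, 23 of the 268 genes with the motif rose (8.58%, beside 0.484% of all genes), and without the members of the mitochondrial list 18 of 261 (6.90%). Leaving out that list does not remove every gene from which the motif may have been described, so this share need not be independent either. Among risers the median log2 fold change was 3.68 with the motif and 1.82 without it. A match is a description of letters and does not show that a factor binds.

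The stretches below, 5′ to 3′ along each gene's own strand, lie before the starts of rising list members and show the motif, in capitals, in its place.
AT2G21640 (chr2:9254303-9254363, plus strand): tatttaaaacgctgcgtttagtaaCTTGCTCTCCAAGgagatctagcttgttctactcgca
AT5G51440 (chr5:20891029-20891089, plus strand): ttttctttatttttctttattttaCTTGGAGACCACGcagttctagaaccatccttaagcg
HSP23.6-MITO (chr4:12916856-12916916, plus strand): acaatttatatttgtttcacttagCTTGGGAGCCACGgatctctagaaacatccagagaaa
CYP81D8 (chr4:17571847-17571907, minus strand): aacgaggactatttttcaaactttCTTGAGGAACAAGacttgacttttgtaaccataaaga
AT2G04050 (chr2:1339588-1339707, minus strand): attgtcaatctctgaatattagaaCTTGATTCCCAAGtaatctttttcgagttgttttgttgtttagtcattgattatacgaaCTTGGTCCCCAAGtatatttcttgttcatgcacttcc
HSP17.6II (chr5:3883295-3883355, minus strand): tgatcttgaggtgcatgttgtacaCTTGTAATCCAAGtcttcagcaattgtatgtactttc

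The first 3 are genes of the mitochondrial list, the next 2 of the detoxification list and the last of the heat shock list. The motif ended 38 bases before the gene start in AT2G21640, 97 in AT5G51440 and 33 in HSP23.6-MITO, and AT2G04050 held it 2 times. Of the 23 risers with the motif 19 had a match wholly before the start. In the other 4, AOX1A, UGT74E2, SOT12 and AT2G41730, the matches lay across the annotated start or past it.

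**Figure D3:**
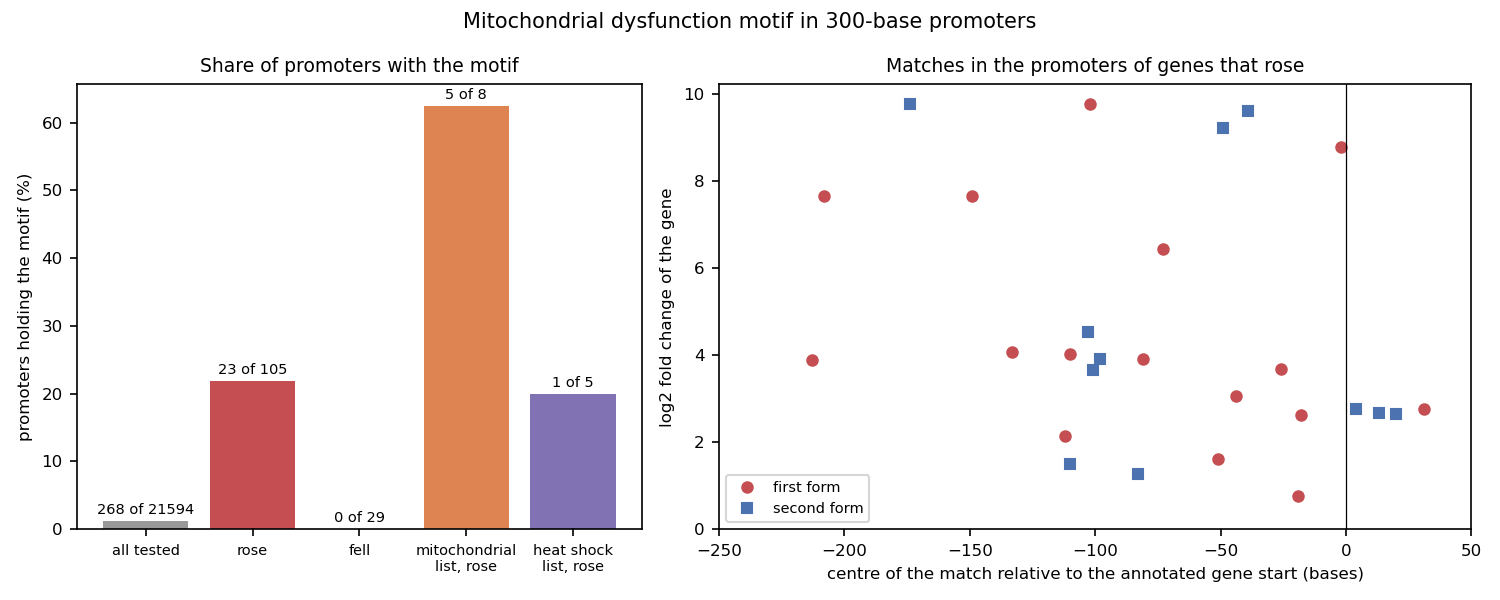
The left panel gives the percentage of 300-base promoters that hold the mitochondrial dysfunction motif in either form, for all genes tested, genes that rose, genes that fell, and rising members of the mitochondrial and heat shock lists, with counts above the bars. The right panel places each match in the 23 rising genes by the distance of its centre from the annotated gene start (x axis, bases) and the fitted log2 fold change of its gene (y axis), which for genes with few unsprayed counts depends on the fit; matches are spread over the window, before and past the start.

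Genes for detoxification made up a second group of risers. In the xenobiotic detoxification list 4 of 12 tested members rose (beside 0.484% of all genes) and 0 fell (beside 0.134%). The list's median log2 fold change was 0.98, and all 12 estimates were higher with DEX spray. CYP81D8 (AT4G37370), a cytochrome P450 induced by many chemicals, was at 2.50 and 2.48 CPM without spray and 42.8 and 41.6 CPM with DEX. The 2 sprayed libraries were close to each other and 16.9-fold higher (log2 fold change 4.08 ± 0.29, edgeR adjusted p = 3.25e-06). AT2G04050, a MATE efflux carrier, was at 0.164 and 0.0413 CPM without spray and 19.3 and 24.7 CPM with DEX (edgeR adjusted p = 5.31e-05), a step from 5 counts in both unsprayed libraries together to 1039. DTX1 (AT2G04040), a nearby gene on chromosome 2 for the carrier shown to export toxic compounds, rose from 0.287 and 0.165 to 3.51 and 5.01 CPM (log2 fold change 4.21 ± 0.49, edgeR adjusted p = 5.42e-04). Another such carrier gene, AT2G04070, had 0 counts unsprayed and 0.912 and 1.48 CPM with DEX without passing the test (edgeR adjusted p = 0.0647). Such similar copies can share reads. AT3G04000, an aldehyde reductase of the NAD(P)-binding fold, rose from 1.76 and 1.61 to 3.69 and 4.49 CPM (log2 fold change 1.28 ± 0.23, edgeR adjusted p = 0.0154), and lost the call without unsprayed replicate 2 (adjusted p = 0.178) and without DEX replicate 2 (0.263).

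Glutathione transferases join glutathione to reactive compounds. Of 23 tau-class members tested 2 rose (beside 0.484% of all genes) and 0 fell (beside 0.134%), with a median log2 fold change of 0.11. GSTU9 (AT5G62480) was at 0.0410 and 0.165 CPM without spray and 5.20 and 7.62 CPM with DEX, nearly silent without spray (edgeR adjusted p = 1.09e-04). GSTU24 (AT1G17170) rose from 0.738 and 1.36 to 4.61 and 5.62 CPM, with a log2 fold change of 2.28 ± 0.43 (edgeR adjusted p = 0.0214), and was not called when any of the 4 wild type libraries was left out. GSTF7 (AT1G02920), of the phi class, was at 0.123 and 0.0826 CPM without spray and 5.02 and 6.14 CPM with DEX (edgeR adjusted p = 0.0104). It can share reads with a near-identical copy, and 1 of the 4 fits with a library left out called it.

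Transport, signalling and hormone genes were also among the risers with large folds. ABCB4 (AT2G47000), a plasma membrane carrier of auxin, was at 4.63 and 4.30 CPM without spray and 86.2 and 103 CPM with DEX. Both sprayed libraries stood far above both unsprayed ones (log2 fold change 4.40 ± 0.37, edgeR adjusted p = 1.69e-05). PHT3;2 (AT3G48850), a phosphate carrier of the inner mitochondrial membrane, was at 0.0820 and 0 CPM without spray and 9.39 and 13.2 CPM with DEX. From 2 counts unsprayed, its ratio was 283-fold, with a 95% counting interval of 78.0 to 2345 (edgeR adjusted p = 5.85e-04). AGC2-1 (AT3G25250), the kinase also known as OXI1 that oxidative bursts induce, went from 0.0820 and 0.0413 to 3.47 and 3.69 CPM (edgeR adjusted p = 1.09e-04), a ratio of 59.2-fold, with a 95% counting interval of 19.9 to 289.8.

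ACS2 (AT1G01480), which makes the ethylene precursor ACC, was the 1 of 9 ethylene genes tested that rose, beside 0.484% of all genes (list median log2 fold change 0.20). It was at 0.205 and 0.165 CPM without spray and 4.20 and 4.97 CPM with DEX, a 24.1-fold rise (edgeR adjusted p = 0.00120). HB1 (AT2G16060), a haemoglobin that scavenges nitric oxide when oxygen is short, was the 1 of 10 hypoxia genes that rose (median 0.11), from 1.43 and 1.12 to 7.62 and 8.78 CPM (log2 fold change 2.68 ± 0.43, edgeR adjusted p = 0.00779). Its adjusted p was 0.141 without unsprayed replicate 2 and 0.0862 without DEX replicate 2.

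A part of the heat shock genes rose, where 0.484% of all genes rose and 0.134% fell. Of 16 tested 5 rose and 0 fell, with a median log2 fold change of 0.25, and 3 to 4 rose with a library left out or, 3 of them, in a fit of only the wild type libraries. HSP90.1 (AT5G52640), a stress-induced cytosolic chaperone, was at 7.05 and 9.01 CPM without spray and 22.3 and 23.3 CPM with DEX (log2 fold change 1.51 ± 0.20, edgeR adjusted p = 0.00157). HSP70 (AT3G12580) rose from 9.92 and 12.1 to 30.5 and 35.5 CPM (log2 fold change 1.59 ± 0.21, edgeR adjusted p = 0.00163). HSFA2 (AT2G26150), the transcription factor that prolongs the heat response, rose from 0.697 and 1.32 to 3.79 and 5.33 CPM (log2 fold change 2.18 ± 0.31, edgeR adjusted p = 0.00271). The small heat shock gene HSP17.6A (AT5G12030) went from 0.0410 and 0 to 1.92 and 1.85 CPM (edgeR adjusted p = 0.00128), a ratio of 93.0-fold, with a 95% counting interval of 16.3 to 3714. Its class II relative HSP17.6II (AT5G12020) went from 0.0410 and 0.0413 to 0.593 and 0.762 CPM (edgeR adjusted p = 0.0357), and was not called with any wild type library left out. Among the heat genes not called, HSP101 was at 15.8 and 18.6 CPM without spray and 19.4 and 21.3 CPM with DEX. HSP18.2 was at 2.62 and 2.64 CPM without spray and 2.37 and 2.57 CPM with DEX. HSP17.4, also not called, had a higher estimate (fitted log2 fold change 3.55), with no overlap between the wild type groups.

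The heat shock element, GAA, TTC and GAA with 2 bases between neighbours, searched on both strands of the same windows, was in 2 of the 5 risers (40%) and in 0.519% of all windows. HSFA2 holds it before its start, in capitals here.
HSFA2 (chr2:11135512-11135572, plus strand): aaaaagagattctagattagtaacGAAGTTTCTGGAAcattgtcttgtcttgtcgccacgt

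The falls were smaller, and histone genes stood out among them. Since the histones were noticed after the values were seen, they are described without a test as a family: 13 of the 29 fallers were histone genes, of 44 tested by annotation (29.5%, beside 0.134% of all genes that fell). In 40 of the 44 the estimate was lower with DEX spray, and the median log2 fold change was -0.51. Histones package DNA, and most of these genes are read while DNA is copied. Their summed level was 4421 and 4786 CPM unsprayed and 3592 and 3314 CPM with DEX, without overlap. HIS4 (AT2G28740), an H4 gene, was at 94.1 and 105 CPM without spray and 64.4 and 54.2 CPM with DEX (log2 fold change -0.75 ± 0.11, edgeR adjusted p = 0.00302). HTB2 (AT5G22880), an H2B gene, fell from 113 and 131 to 74.5 and 64.1 CPM (log2 fold change -0.81 ± 0.13, edgeR adjusted p = 0.00806). The other histone genes that fell and were named by rule were HTA6 (-0.82 ± 0.17), HTA13 (-0.78 ± 0.16) and HTB1 (-0.61 ± 0.13), with edgeR adjusted p of at most 0.0396.

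The histone calls depended on the libraries used, with 21 in DESeq2 and 3 in a fit of only the wild type libraries. With 1 wild type library left out, 0 to 11 fell: 0 without unsprayed replicate 2 or without DEX replicate 2, 8 without DEX replicate 1 and 11 without unsprayed replicate 1. Of the 13, 12 had all 6 sprayed 35S::STM-GR libraries below the 5 unsprayed ap1-1 and microRNA libraries (beside 13.2% of all genes). With DEX over mock in 35S::STM-GR 7 of them also fell, beside 7.15% of all genes (HTB2 at -0.44 ± 0.11, edgeR adjusted p = 0.0147). Reads of near-identical histone copies are hard to assign, so values of single genes are less certain. In the mitotic cell cycle list 0 of 11 were called in edgeR, DESeq2 or limma-voom, where edgeR called 0.134% of all genes lower. At an unadjusted p under 0.05 in edgeR, 5 were lower, beside 9.94% of all genes in either direction. All 11 estimates were lower (median -0.22, summed level 389 and 399 CPM unsprayed and 363 and 324 CPM with DEX). In such bulk tissue fewer cells of a kind and less RNA per cell cannot be told apart. The letters TGACG, to which TGA factors bind and which also begin TGACGTCA, were in 9 of the 13 windows (69.2%) and in 23.7% of all windows. These letters were picked after the values were seen, from 12 motifs searched. TGACGTCA was in 0 of the 13, CGCGTG, bound by CAMTA factors, in 3 (23.1%, beside 3.50% of all windows), and TGACG was also in 33.3% of the windows of risers.

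Of the other fallers, AT5G03350, a legume lectin protein, was the 1 called whichever wild type library was left out. It was at 33.1 and 31.2 CPM without spray and 16.9 and 14.6 CPM with DEX, 2.04-fold lower (log2 fold change -1.03 ± 0.10, edgeR adjusted p = 1.09e-04). It was named after its values were seen. In 35S::STM-GR it rose with DEX over mock (0.45 ± 0.09, edgeR adjusted p = 0.00293), and ap1-1, unsprayed, was at 17.9 ± 1.07 CPM (SD, n = 3), within the sprayed range of 13.5 to 20.2 CPM. ARD3 (AT2G26400), an acireductone dioxygenase that recycles methionine, had the largest fall by rule, from 4.67 and 4.50 to 2.23 and 1.0 CPM (log2 fold change -1.52 ± 0.30, edgeR adjusted p = 0.0328). TIR (AT1G72930), a Toll/interleukin-1 receptor domain protein of the kind used in plant immunity, fell from 26.2 and 32.9 to 13.4 and 15.4 CPM (log2 fold change -1.03 ± 0.16, edgeR adjusted p = 0.00540). ARD3 and TIR each kept the call in 1 of 4 fits with a library left out.

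Single members of 3 growth and hormone lists fell, where 0.134% of all genes fell. LOX3 (AT1G17420), a lipoxygenase at the start of jasmonate synthesis, was the 1 of 11 tested (median 0.02), from 47.4 and 62.7 to 27.7 and 30.2 CPM (log2 fold change -0.93 ± 0.17, edgeR adjusted p = 0.0218). GA2OX2 (AT1G30040), which inactivates gibberellins, was the 1 of 8 (median -0.02), from 35.6 and 31.0 to 21.8 and 24.1 CPM (log2 fold change -0.54 ± 0.11, edgeR adjusted p = 0.0398). EXPA16 (AT3G55500), an expansin that loosens cell walls, was the 1 of 15 (median -0.12), from 5.20 and 4.38 to 2.55 and 2.57 CPM (log2 fold change -0.90 ± 0.18, edgeR adjusted p = 0.0364). ATPMEPCRB (AT4G02330), a pectin methylesterase that alters the wall, also fell, from 21.5 and 23.9 to 15 and 13.1 CPM (log2 fold change -0.69 ± 0.13, edgeR adjusted p = 0.0223). LOX3 and ATPMEPCRB were called in 1 of the 4 fits with a library left out and GA2OX2 and EXPA16 in none.

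**Figure D4:**
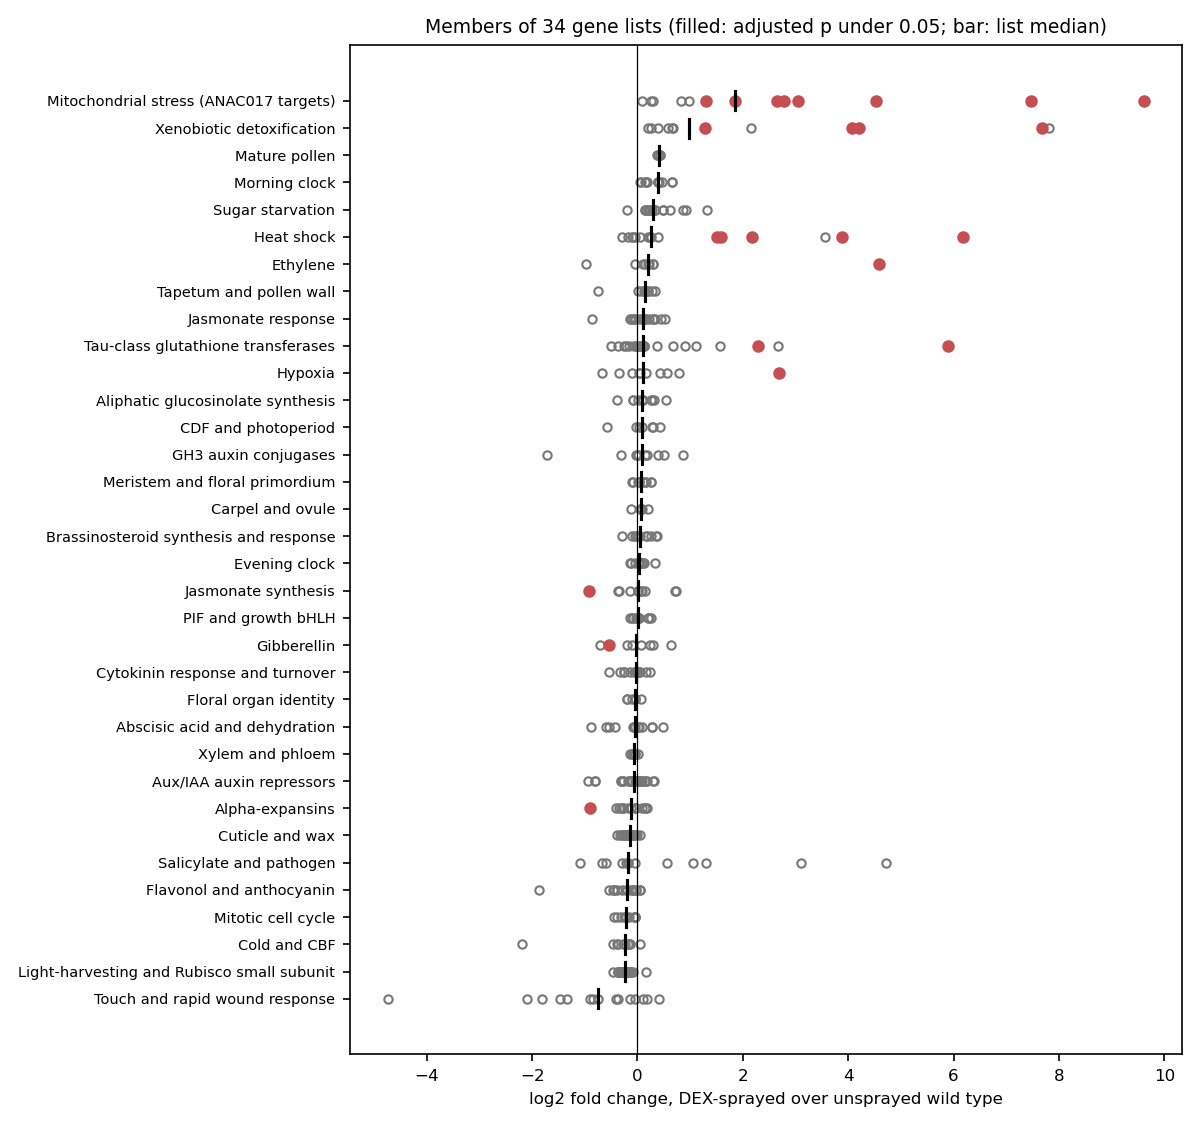
Each row is 1 of 34 gene lists, each circle the fitted log2 fold change of a tested member in DEX-sprayed over unsprayed wild type (x axis), filled red where the adjusted p was under 0.05, and the black bar the list's median. The lists are ordered by median, from mitochondrial stress at 1.85 to touch and rapid wound response at -0.75.

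The other 25 lists held 312 tested genes and 0 calls in edgeR. At an unadjusted p under 0.05, 20 of these genes were higher and 34 lower, beside 9.94% of all genes in either direction, while DESeq2 called 1 higher and 4 lower and limma-voom 0. They covered cold, the clock and photoperiod, sugar starvation, jasmonate response, salicylate and pathogen response, abscisic acid, brassinosteroid, cytokinin, growth bHLH factors, auxin repressors and conjugases, cuticle, glucosinolate, flavonol, light harvesting, meristem and flower identity, the cell cycle, and markers of pollen, tapetum, carpel and vasculature. Their medians lay between -0.75 and 0.41. In the morning clock list all 12 estimates were higher and 8 had no overlap (beside 22.9% of all genes in that direction), with a median of 0.39. Of these 12, 5 were higher at an unadjusted p under 0.05. In the cuticle list 19 of 20 estimates were lower, with a median of -0.15, and 1 was lower at an unadjusted p under 0.05. Of these 20, 11 lay lower without overlap (beside 22.9% of all genes in that direction). Among the light-harvesting and Rubisco genes 22 of 23 estimates were lower and 20 had no overlap (beside 22.9% of all genes in that direction), with a median of -0.24, and 4 were lower at an unadjusted p under 0.05. PAD3, which makes the last step of camalexin synthesis, was at 0.0410 and 0 CPM without spray and 0.502 and 0.842 CPM with DEX (edgeR adjusted p = 0.0856).

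Touch and rapid wound genes, which answer to handling within minutes, had the lowest median, -0.75. In edgeR 0 of 15 were called, where 0.484% of all genes rose and 0.134% fell. At an unadjusted p under 0.05 in edgeR, 6 were lower, beside 9.94% of all genes in either direction. DESeq2 called 4 lower and limma-voom 0. Without unsprayed replicate 1, 8 fell and 0 rose, and without unsprayed replicate 2, 0 fell and 1 rose. The unsprayed libraries disagreed here. In replicate 2, 10 of the 15 were at least 2-fold above replicate 1, beside 1.63% of all genes, and the summed levels were 216 and 500.3 CPM unsprayed and 246 and 293 CPM with DEX. TCH4 (AT5G57560), a wall-modifying enzyme named for touch, was at 24.1 and 37.9 CPM without spray and 12.4 and 10.1 CPM with DEX (log2 fold change -1.47 ± 0.33, edgeR adjusted p = 0.0647), lower than both unsprayed libraries. WRKY40, an early wound factor, was at 2.21 and 21.0 CPM without spray and 5.97 and 7.78 CPM with DEX, so the sprayed libraries lay between the unsprayed ones.

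Sugar starvation genes showed the opposite split. In replicate 1, 10 of 16 were at least 2-fold above replicate 2, beside 2.39% of all genes, with summed levels of 2392 and 1029 CPM unsprayed and 2249 and 1980 CPM with DEX. None was called in edgeR, DESeq2 or limma-voom, and none had an unadjusted p under 0.05, while 4 rose without unsprayed replicate 1. DIN10, a starvation-induced gene of sugar metabolism, was at 496 and 131 CPM without spray and 401 and 301 CPM with DEX. In the mitochondrial list 1 of 13 genes was at least 2-fold higher in each unsprayed library than in the other: OM66 in replicate 2, at 5.90 and 13.1 CPM without spray and 13.5 and 19.9 CPM with DEX, and AOX1D in replicate 1, with 1 count against 0.

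**Figure D5:**
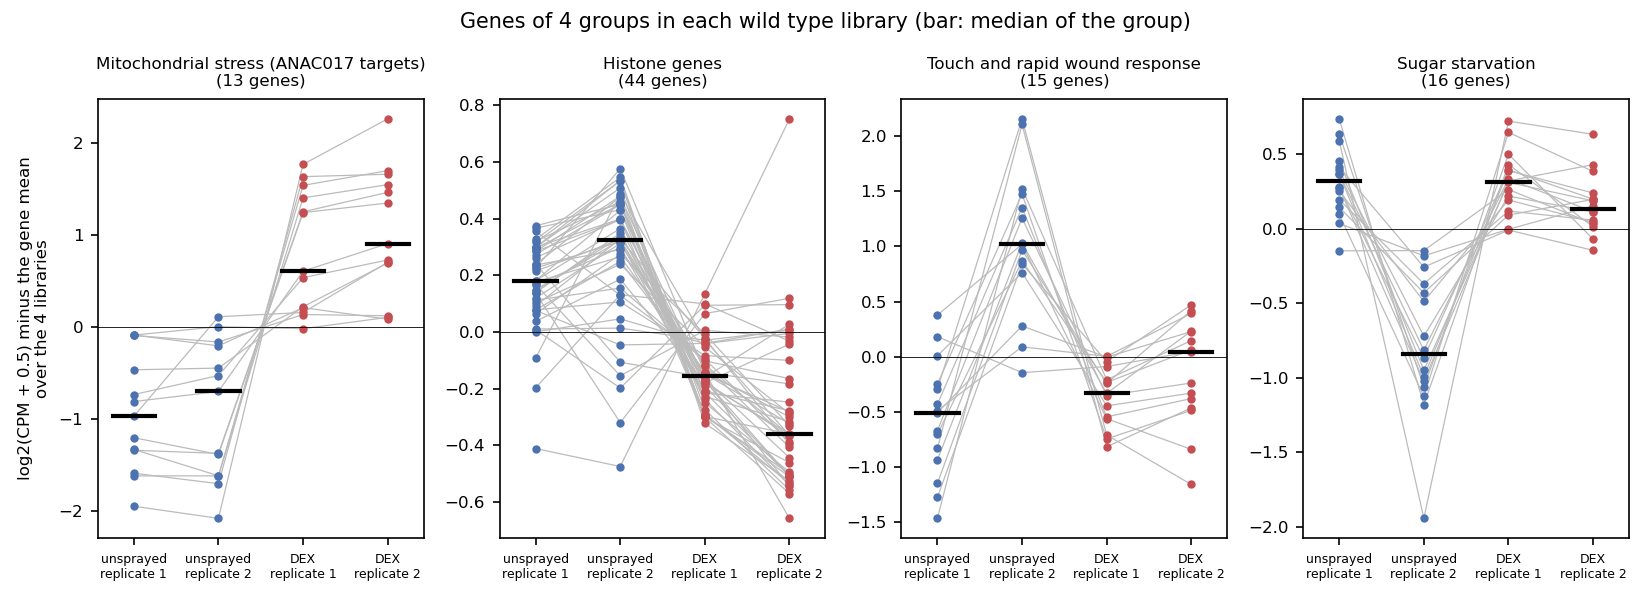
Each panel gives the genes of 1 group in the 4 wild type libraries (x axis) as log2(CPM + 0.5) minus the gene's mean over these libraries (y axis); grey lines join a gene, black bars are group medians, and blue and red mark unsprayed and DEX-sprayed libraries. The mitochondrial and histone medians separate sprayed from unsprayed libraries, whereas the touch and sugar starvation medians set unsprayed replicate 2 apart from the other 3 libraries.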

How the data were processed

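RNA was sequenced from inflorescence tissue in 15 libraries. The authors deposited 1 table of read counts per gene and library, for which the submitters' processing notes name TopHat2 2.0.6, HTSeq 0.62, DESeq2 and the build TAIR10. The strand setting is not given in the sources used here, so counts of overlapping and antisense genes, and of near-identical copies, are less certain. Entries naming no gene (5.49% to 6.63% of reads) stayed out of library sizes and tests. The deposited table of normalized values was not used.

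The tests used edgeR 4.0.16 (R 4.3.3) after a filter on low counts (filterByExpr, minimum count 10), with scaling by TMM, and the quasi-likelihood F test, with all 15 libraries in the model and 1 coefficient per group (biological coefficient of variation 9.85%). P-values were adjusted by Benjamini-Hochberg across the 21716 genes tested, and genes under 0.05 are the ones called. The fit gives each gene 1 spread for all groups, while the unsprayed wild type and ap1-1 libraries varied more than the others. The labels do not say how replicates were grown, so p-values measure the spread between these libraries. Each SE was computed as |log2 fold change| divided by √F. Replicate numbers are those of the sample titles. The mutant allele is ap1-4 in the design text and ap1-1 in the sample labels, which are followed. Where unsprayed wild type had 0 counts, the fold is a lower bound computed with 3 counts for that group, and for 1 to 3 counts the ratio has an exact 95% interval. Both cover counting error only.

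Gene names, products and the genome came from RefSeq's TAIR10.1, which held 28009 of the 28775 genes. The genes named were up to 10 risers and 10 fallers with the largest log2 fold change among called genes with a symbol, an average log2 CPM of at least 1 and no overlap, from each list the 5 called members of lowest adjusted p (up to 2 by p in a list with none), and STM and KNAT1. Others were chosen after their values were seen: AT5G03350, NAC13, NDB4, SOT12, list members that did not pass and are given as values, the 4 families defined by annotation and the genes of the closing section. The members, the 34 lists and the motifs were chosen with earlier results of these data known. Alternatives were DESeq2 1.42.0, limma-voom (limma 3.58.1), median-of-ratios size factors (RLE), a minimum count of 50 and no filter. Others were fewer groups in the fit, a replicate block, and each wild type library left out. For the test of the difference of responses, each STM-GR library was left out too. Libraries of the other genotypes, all unsprayed, were not left out singly. The tests were tested on simulated counts with known changes.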

Additional observations from a re-analysis of the deposited data

Results flagged for a closer look

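For 26 named genes the log2 response of wild type, DEX-sprayed minus unsprayed, differed from that of 35S::STM-GR, DEX-sprayed minus mock-sprayed, in edgeR's test of the difference. The references differ: the wild type one was not sprayed, the 35S::STM-GR one was sprayed with Silwet, and the genotypes differ too, so spray, DEX and genotype cannot be told apart in this test. Most of these genes were named because they rose or fell in wild type, and the test holds that same contrast. Their direction was therefore largely set, and their adjusted p-values are not independent of that choice. The fitted values of genes with few counts in unsprayed wild type depend on the fit and are not bounds.

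Larger in wild type were the responses of the mitochondrial genes HSP23.6-MITO (9.64), PHT3;2 (7.17), AOX1D (7.07), AT5G51440 (4.50), AOX1A (2.44), UGT74E2 (2.51) and AT2G21640 (2.86), with edgeR adjusted p of at most 0.00879. The same held for the detoxification and transport genes AT2G04050 (8.0), GSTU9 (5.66), GSTF7 (4.77), ABCB4 (4.15), DTX1 (4.37), CYP81D8 (3.39) and GSTU24 (2.33) (at most 0.0457), and for the chaperone and signalling genes HSP17.6A (5.54), HSP90.1 (1.20), HSP70 (1.25), HSFA2 (1.67), AGC2-1 (4.87), ACS2 (4.44) and HB1 (3.04) (at most 0.0291).

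In 4 genes that were not called in wild type alone the responses differed as well. JAZ2, a repressor of jasmonate response (0.59, adjusted p = 0.0401), ARR6, a response regulator that cytokinin induces (0.87, 0.0259), and MAM1 of glucosinolate synthesis (0.84, 0.0277) had the higher response in wild type. LHCB2.3, of the light-harvesting antenna (-0.70, 0.0162), had the lower one, and so did TIR (-1.05, 0.0176), which fell in wild type. In wild type alone the log2 fold changes were 0.22 for JAZ2, -0.34 for ARR6, 0.31 for MAM1 and -0.37 for LHCB2.3. The higher response of ARR6 is therefore not a rise in wild type.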

How the results depend on the processing

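No log2 fold change of the 185 genes followed reversed a called direction under the alternatives run. Of 2200 gene values under the alternatives 1764 stayed on their side of the threshold, 425 lost the call and 11 gained one. Of the 105 risers 30 were called in every alternative, as was 1 of the 29 fallers, and 21 and 7 in no fit with a library left out.

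Risers and fallers numbered 166 and 79 in DESeq2, 60 and 6 with only the 4 wild type libraries, and the fallers 71 with only the wild type and 35S::STM-GR libraries. With a wild type library left out they ranged from 38 to 158 and from 1 to 104. At least 2-fold, 53 rose and 2 fell with only the wild type libraries, and 16 fell in DESeq2, 4 in limma-voom and 11 without a filter. Leaving out a library gave 38 to 105 and 0 to 46. Genes whose response was higher in wild type than in 35S::STM-GR numbered 340 in DESeq2 and 373 with only the wild type and 35S::STM-GR libraries, where 348 were lower, beside 214 and 205. With a wild type or STM-GR library left out they ranged from 100 to 207 and from 95 to 276. The cause was not tested.

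The deviations of same-numbered wild type libraries had a correlation of 0.0936 over 18322 genes, with only 2 pairs, so the numbers are not taken to pair the samples. These are the numbers of the sample titles. The sample descriptions number the libraries otherwise, with only 1 number in common between the groups, so no block could be formed from them. The replicate block gave 107 risers and 33 fallers (92 and 6 at least 2-fold) and 210.0 higher and 203 lower responses.

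With 2 libraries a group, absent calls do not show absent change. The 1 library left when its partner is dropped is assumed to vary like the other groups. Spray and DEX cannot be told apart in wild type, and no mock-sprayed wild type was analysed here. In genes under 1 CPM the unsprayed level rests on a few reads.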

Other observations

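Risers fell into a few annotated groups, and these groups and the further genes of this section were named after their values were seen. Some group members were already given above: UGT74E2 among the UDP-glycosyltransferases, and DTX1 and AT2G04050 among the MATE efflux carriers. Over all genes tested, 0.484% rose and 0.134% fell. Of the 38 tested genes annotated with DUF295, a domain of unknown function, 5 rose and 0 fell, and 1 to 5 rose with a library left out (1 without unsprayed replicate 2 or without DEX replicate 2). AT5G52930, with the largest fitted fold change of the 38, had 0 counts unsprayed and 3.42 and 3.09 CPM with DEX. It was at least 53.5-fold higher over the floor of 3 counts (edgeR adjusted p = 1.69e-05). Of 105 UDP-glycosyltransferases, which add sugars to hormones and foreign compounds, 5 rose and 0 fell, beside 0.484% of all genes that rose. Of these UDP-glycosyltransferases 3 to 4 rose with a library left out (3 without DEX replicate 1 or without DEX replicate 2) and 8 in DESeq2. DOGT1 (AT2G36800), which glucosylates a fungal toxin and brassinosteroids, rose from 8.48 and 15.5 to 50 and 50.9 CPM (log2 fold change 2.07 ± 0.28, edgeR adjusted p = 0.00169). Of 44 MATE efflux carriers 3 rose and 1 fell, and 2 to 3 rose and 0 to 1 fell with a library left out.

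Several regulators rose. CRF6, a cytokinin response factor, went from 12 and 12.6 to 25.5 and 28.3 CPM (log2 fold change 1.13 ± 0.17, edgeR adjusted p = 0.00393), ATAF2, a NAC factor, from 17.2 and 20.4 to 34.4 and 42.3 CPM (1.03 ± 0.17, 0.0105), and NAC032 from 2.50 and 3.35 to 6.07 and 7.02 CPM (1.16 ± 0.18, 0.00503). ERF71, an ethylene response factor of low-oxygen tissue, rose from 0.0410 and 0.0413 to 1.73 and 1.72 CPM (edgeR adjusted p = 0.00168). The aldolase gene FBA6 rose from 96.8 and 101 to 169 and 174 CPM (log2 fold change 0.79 ± 0.13, edgeR adjusted p = 0.00806). The pyruvate kinase gene AT2G36580 rose with a log2 fold change of 0.63 ± 0.10 (edgeR adjusted p = 0.00777). FBA6, AT2G36580 and CRF6 were each called in 2 of the 4 fits with a library left out, NAC032 in 3 and ATAF2 in 1. SOT12 (AT2G03760), a sulfotransferase, rose from 15.5 and 11 to 81.9 and 86.0 CPM (log2 fold change 2.67 ± 0.25, edgeR adjusted p = 6.10e-05), and AT5G43450, an oxygenase dependent on 2-oxoglutarate, from 6.02 and 6.12 to 81.8 and 87.9 CPM (3.80 ± 0.22, 1.31e-06).

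The letters TTGACC, to which WRKY factors bind, were in 33 of 105 windows of risers (31.4%) and in 14.1% of all windows, searched on both strands and picked from the same 12 motifs after the values were seen. WRKY30 rose from 0.246 and 0.0413 to 2.60 and 2.37 CPM (edgeR adjusted p = 0.00905) and WRKY25 from 1.93 and 1.78 to 6.38 and 6.42 CPM (edgeR adjusted p = 0.0172). WRKY40 and WRKY33 of the touch list were not called and had lower estimates (log2 fold change -0.75 and -0.14), with the sprayed libraries between the unsprayed ones. With a library left out, WRKY30 was called in 2 of 4 fits and WRKY25 in 0, and WRKY25 was not called in limma-voom (adjusted p = 0.0775).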
